A study of Mus musculus with 6 samples.

Results

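Hox genes of the mouse were examined in 2 populations of primitive mammary epithelial cells. They were found as the non-control probes whose gene symbol was Hox, then a, b, c or d, then digits only, and those reported here were 41 of the 55681 probes on the array and 38 of the 20649 genes that could be named. The family is not reported in full, so counts over it cover these 38 genes alone. Hoxa9, Hoxa13 and Hoxb3 had 2 probes each. The HoxA cluster was represented by 10 genes, HoxB by 10, and HoxC and HoxD by 9 each.

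RNA was compared between 3 samples of embryonic day 18.5 (E18.5) fetal cells and 3 samples of adult basal cells, which are the cells of the outer layer of the mammary duct. All came from mammary glands of female C57Bl6J mice, and the adults were 8 to 12 weeks old. Both populations were depleted of CD31+, CD45+ and Ter119+ cells and then sorted, fetal cells as EpCAM++CD49f+ and adult cells as BP-1-EpCAM+CD49f+, and neither had been cultured. The methods state an overnight digestion for the adult glands and a much shorter one for the fetal glands, and do not say how many animals went into a sample. Each sample was hybridized to 1 one-color Agilent array, so that the number of arrays limits the precision of every value. Between 76.4% and 83.3% of the probes on an array were well above background, and no spot was saturated.

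Hox genes encode homeodomain transcription factors that give cells their position along the head-to-tail axis of the embryo. They lie in 4 clusters that arose by duplication, so that genes of the same number in different clusters (paralogues) are each other's closest relatives, and low numbers are used further forward in the body and earlier in development than high numbers. Many remain active in adult tissues, where their pattern is held by Polycomb repression and by Trithorax and MLL activation, and members of the family, Hoxb9 among them, are known to act in the mammary epithelium.

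The identity of the populations was first examined with marker genes. The 8 markers of basal mammary cells were measured with 10 probes, of which 8 were called higher in the adult basal arrays, among them Acta2, the smooth muscle actin of the myoepithelium, with a log2 fold change of -4.07 (fetal over adult basal in all values that follow). Summed over the list, the normalized signal ranged from 67782 to 80117 in fetal samples and from 733232 to 788831 in adult basal samples, with Acta2 the brightest probe on every array but fetal replicate 3, where Krt17 was. Of 11 tested luminal probes, 5 were called higher in the fetal arrays, including Elf5, a factor of alveolar cells, at 7.55, and Foxa1, a factor of hormone-sensing cells, at 6.46. Another 2 luminal probes passed a Benjamini-Hochberg adjusted p of 0.05 with 2-fold on the adult basal side, where 14% of all tested probes did. They were Krt19, a luminal keratin, at -1.22 and 1 of 3 probes of Esr1, the estrogen receptor, at -3.58. The other 2 Esr1 probes lay below the signal filter, which kept probes of at least 5.95 on the log2 scale in either population, and on both every adult basal array was above every fetal array. Elf5 and Csn2, another called luminal marker, passed that filter through the fetal arrays alone. Myh11, a called basal marker, and the tested Esr1 probe passed it through the adult basal arrays alone. The direction of these probes was set by the filter. A probe was called here where limma gave it a p of 0.05 or less after Holm adjustment together with a change of at least 2-fold, which 11.1% of the 20440 tested probes reached. Enpep, which encodes the BP-1 antigen, was well above background on no array.

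Detection varied from gene to gene within every cluster. Counting the brightest probe where a gene had 2, 16 of the 38 genes were well above background on all 6 arrays, 14 on some arrays and 8 on none. By probe this was 18 of 41 (43.9%) on all arrays and 8 (19.5%) on none, against 77.9% and 9.65% of all probes with a gene. The genes measured on all 6 arrays were 6 of 10 in HoxA (Hoxa3, Hoxa4, Hoxa6, Hoxa7, Hoxa9 and Hoxa13), 6 of 10 in HoxB (Hoxb2, Hoxb3, Hoxb4, Hoxb6, Hoxb7 and Hoxb9), 4 of 9 in HoxC (Hoxc4, Hoxc6, Hoxc8 and Hoxc12) and 0 of 9 in HoxD. The 8 genes above background on no array were Hoxa2, Hoxa5, Hoxa11, Hoxb13, Hoxc9, Hoxc11, Hoxd1 and Hoxd12.

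By paralogue number, 3 of the 7 anterior genes (numbers 1 to 3), 9 of the 15 central genes (4 to 8) and 4 of the 16 posterior genes (9 to 13) were above background on all arrays. Every paralogue of number 6 (Hoxa6, Hoxb6 and Hoxc6) and of number 7 (Hoxa7 and Hoxb7) was measured on all 6 arrays. These counts are descriptions of probes, which differ in how well they bind, and the difference between clusters was not tested.

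On the adult side, 7 genes were above background on at least 1 adult basal array and on no fetal array (Hoxa10, Hoxc5, Hoxc13, Hoxd4, Hoxd8, Hoxd9 and Hoxd11), and 0 showed the opposite. By probe this was 8 of 41 (19.5%) and 0, against 2.67% and 2.85% of all probes with a gene. The count rested on adult basal replicate 1 (each array was left out in turn after the data had been seen), on which probes were well above background down to a log2 signal of 3.21 (3.99 and 4.13 on the other two). Without that array 2 genes were above background on adult basal arrays alone (Hoxd8 and Hoxd11) and 2 on fetal arrays alone (Hoxb1 and Hoxd13). Of all probes with a gene, 1.91% and 4.82% then were. On fetal replicate 1 the limit was 3.26 (3.98 and 4.08 on the other fetal arrays). Without fetal replicate 1 the counts were 10 genes on adult basal arrays alone and 0 on fetal arrays alone (4.49% and 1.80% of all probes with a gene). Of the 7 genes, 1 was above background on all 3 adult basal arrays. This was Hoxd11, a factor known from limb and kidney development, at 4.16, 4.44 and 4.45 on the adult basal arrays while every fetal array read it at background. The ratio between the groups was at least 1.49-fold, taking on each fetal array the higher of its lowest detected signal and the probe's own signal. No fold is given for the other 6 genes, which were not above background on every adult basal array.

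**Figure D1:**
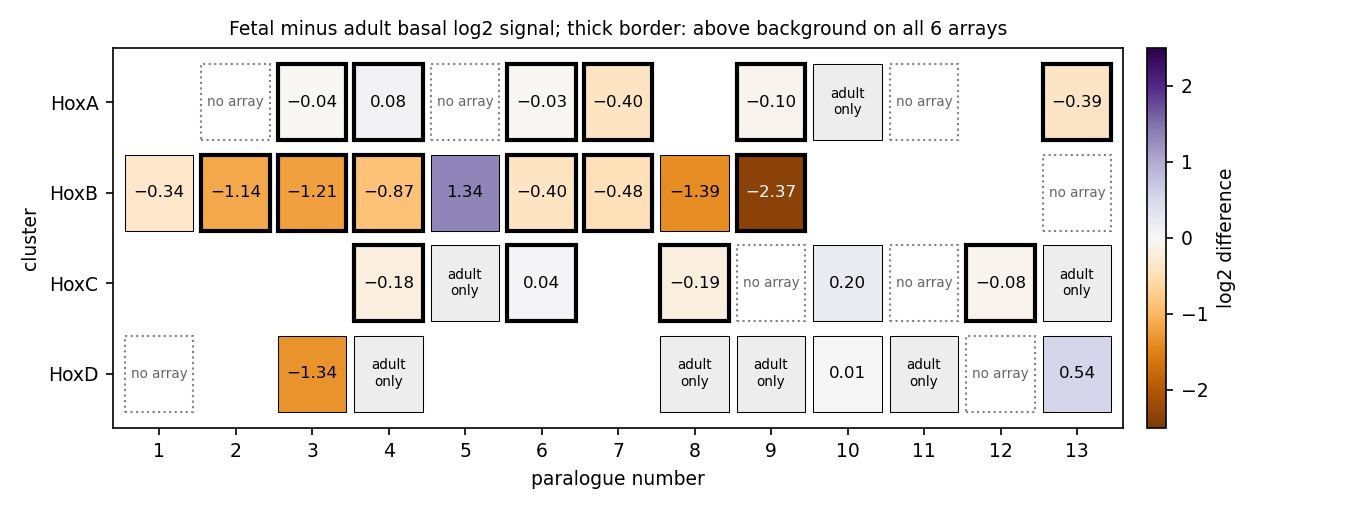
Hox genes by cluster (rows) and paralogue number (columns), with the difference in mean normalized log2 signal between 3 fetal and 3 adult basal arrays for the brightest probe of each gene (purple higher in fetal cells, orange higher in adult basal cells). Thick borders mark the 16 genes above background on all 6 arrays, grey cells the 7 genes above background on adult basal arrays only, and dotted cells the 8 genes above background on no array, which include none of number 6 or 7; empty positions hold no gene or none reported here.

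Once probes dim in both populations had been set aside, 15 of the reported Hox probes, for 14 genes, were tested. None was called at the Holm threshold, where the adjusted p was 1 for all 15. At an unadjusted p under 0.05 there were 6 (64.7% of all tested probes), and at a Benjamini-Hochberg adjusted p of at most 0.05 there were 5 (61.1%), each higher in adult basal cells (30.4%). With a change of at least 2-fold in addition, 3 Hox probes passed (20%), namely Hoxb2, Hoxb3 and Hoxb9. Of all tested probes 30.0% passed in either direction, 16% being higher in fetal cells and 14% in adult basal cells. All 3 Hox probes that passed were on the adult basal side. Since the family is not reported in full, these counts do not give its direction as a whole. The fold limit left out Hoxb4 and 1 Hoxa9 probe. Hoxb9 and Hoxd3 entered the test through their adult basal signal alone.

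Hoxb9, a posterior member of HoxB with known roles in mammary growth and breast cancer, had the largest difference of the 15. Its normalized log2 signal on the 3 fetal arrays was 4.91, 4.64 and 4.75, and on the 3 adult basal arrays 7.00, 6.55 and 7.86. All 3 adult basal arrays lay above all 3 fetal arrays, and the adult basal arrays spread more widely (SD 0.67, n = 3, against 0.13). The log2 fold change was -2.37 ± 0.31 (SE), with a 95% interval of -3.09 to -1.65 and a Benjamini-Hochberg adjusted p of 3.7e-04 in limma. This was 5.18-fold higher in adult basal cells. Hoxb9 had passed the signal filter through the adult basal arrays alone, so that its direction in this test was set by it. In the limma fit without that filter the interval was -3.18 to -1.57 (Benjamini-Hochberg adjusted p = 0.0016).

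Hoxb2, an anterior gene known for patterning the hindbrain, had a signal of 9.20, 9.64 and 9.82 in fetal cells and 10.45, 10.75 and 10.87 in adult basal cells. The groups did not overlap, and the gap between the highest fetal and the lowest adult basal array was about as large as the range of the fetal arrays. It was 2.20-fold higher in adult basal cells (log2 fold change -1.14 ± 0.19, adjusted p = 0.0014).

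Hoxb3 lies next to Hoxb2 in the cluster and shares its early role in the hindbrain. Its brighter probe read 7.41, 7.86 and 7.76 in fetal cells and 8.68, 8.86 and 9.12 in adult basal cells, again without overlap, a difference of 2.32-fold (-1.21 ± 0.17, adjusted p = 5.1e-04). Its dimmer probe, below the signal filter, gave 4.02, 4.41 and 4.82 against 5.62, 5.57 and 5.09. Both probes of Hoxb3 were therefore higher in adult basal cells on every array, by 1.21 and 1.01 on the log2 scale.

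Hoxb4, which is best known for its action on blood stem cells, was the next gene along and moved the same way, but by less than 2-fold. The signal was 9.68, 10.02 and 10.17 in fetal cells and 10.79, 10.68 and 11.03 in adult basal cells. Every adult basal array was above every fetal array. The log2 fold change was -0.87 ± 0.16, with an interval of -1.25 to -0.50 and an adjusted p of 0.0023.

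**Figure D2:**
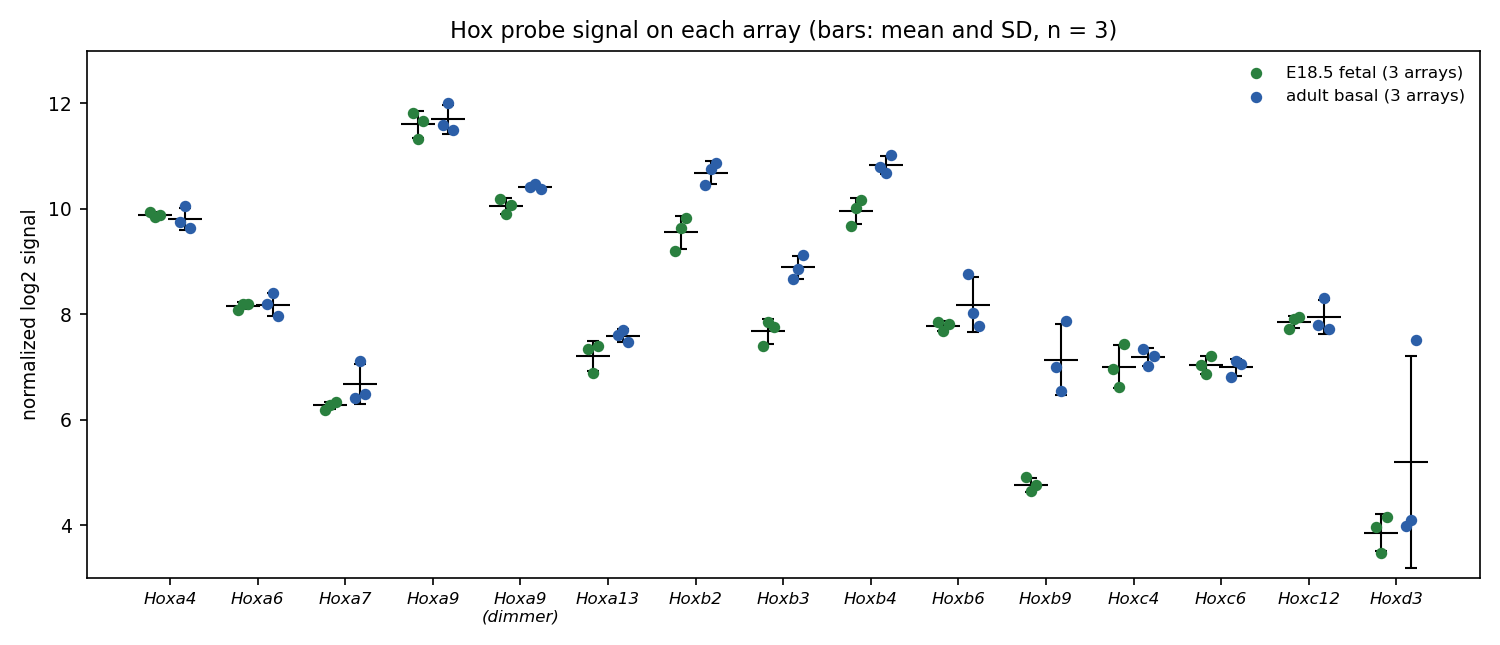
Normalized log2 signal of the 15 tested Hox probes reported, on each of the 3 fetal (green) and 3 adult basal (blue) arrays, with group mean and SD as bars. Adult basal arrays lie above fetal arrays for Hoxb2, Hoxb3, Hoxb4, Hoxb9, Hoxa7, Hoxa13 and the dimmer Hoxa9 probe, and the groups overlap for the other 8; levels of different probes are not comparable.

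The same 4 HoxB probes were compared on each of the 2 slides, since every slide held both populations (1 fetal and 2 adult basal arrays on slide 1, 2 and 1 on slide 2). Hoxb9 differed by -2.53 on slide 1 and -1.86 on slide 2, Hoxb2 by -1.46 and -1.02, Hoxb3 by -1.50 and -1.05, and Hoxb4 by -1.23 and -0.58. As the groups of these probes did not overlap, their direction could not differ between slides, and the values show the size alone. Fitted with a term for the slide, the values were -2.19, -1.24, -1.27 and -0.91.

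The 5 tested probes of HoxB lay between -2.37 and -0.40, on the adult basal side, and 3 of them passed with 2-fold. This is a description of the probes that passed the signal filter, which Hoxb9 passed through its adult basal signal alone and which left out Hoxb5, a gene higher in fetal cells. The fifth was Hoxb6, at 7.85, 7.68 and 7.81 in fetal cells and 8.76, 8.02 and 7.78 in adult basal cells. Its groups overlapped, 1 adult basal array standing above the others, and its value of -0.40 ± 0.24 did not pass (adjusted p = 0.19); it was -0.12 without adult basal replicate 1. Since the probes of 1 cluster share their 6 samples, they are not replicates, and no test set HoxB against the other clusters.

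Outside the signal filter, HoxB was less uniform. Hoxb7, above background on all arrays, had a mean of 5.23 in fetal and 5.71 in adult basal cells with overlapping groups. Hoxb8 read 3.63, 4.97 and 4.20 in fetal cells, where 2 of 3 arrays were above background, and 5.18, 6.02 and 5.77 in adult basal cells. Hoxb5 went the other way, at 5.30, 5.46 and 5.54 in fetal cells and 3.79, 4.76 and 3.74 in adult basal cells, where 2 of 3 arrays were above background. Neither pair of groups overlapped. When all 27222 probes with a gene were fitted without a filter, Hoxb8 had a log2 fold change of -1.39 ± 0.38 (adjusted p = 0.026) and Hoxb5 one of 1.34 ± 0.29 (adjusted p = 0.0099). The cluster thus held members higher in fetal and members higher in adult basal cells, with Hoxb5 between Hoxb4 and Hoxb6 on the chromosome.

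In that fit 8 of the reported Hox probes passed with 2-fold (25.1% of all 27222 probes did): Hoxb2, both Hoxb3 probes, Hoxb5, Hoxb8, Hoxb9, Hoxc9 and Hoxd4. Hoxc9 was above background on no array and has no fold. Hoxd4 was above background on 1 adult basal array alone.

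Among the tested probes reported, those of HoxA and HoxC lay inside 2-fold. All 6 such HoxA probes had a 95% interval inside 2-fold, as did all 3 tested HoxC probes and 1 of the 5 HoxB probes. Over all tested probes the share was 55.0%, and over the Hox probes 66.7% (10 of 15). Hoxa4 read 9.95, 9.85 and 9.88 in fetal cells and 9.75, 10.04 and 9.64 in adult basal cells, with an interval of -0.22 to 0.38. Hoxa6 read 8.08, 8.19 and 8.20 against 8.19, 8.40 and 7.96, with an interval of -0.34 to 0.29. In both, adult basal arrays lay on either side of the fetal ones, and for Hoxa6 adult basal replicate 1 lay within the fetal range.

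Hoxa9, a posterior gene known for its part in leukemia, was measured by a brighter probe at -0.10 ± 0.19 and a dimmer one at -0.37 ± 0.11. The dimmer probe, at 10.19, 9.89 and 10.07 against 10.42, 10.46 and 10.38, had separate groups and an adjusted p of 0.023 without reaching 2-fold. The brighter probe had overlapping groups and an adjusted p of 0.68. The dimmer probe did not pass with a term for the slide (-0.34, adjusted p = 0.053), without fetal replicate 2 (-0.29, 0.089) or without fetal replicate 3 (-0.37, 0.060). The difference between the 2 probes was not tested.

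Hoxa7 had a value of -0.40 (adjusted p = 0.10) and Hoxa13, a gene of the distal limb and genital tract, one of -0.39 (adjusted p = 0.066). In each the 3 adult basal arrays were above the 3 fetal arrays, at 6.41, 7.11 and 6.49 against 6.19, 6.28 and 6.34 for Hoxa7. With a term for the slide Hoxa7 stood at -0.53 (adjusted p = 0.022), and without adult basal replicate 2 at -0.19 (adjusted p = 0.16). For Hoxa13 the adult basal arrays were at 7.61, 7.71 and 7.47 against 7.33, 6.89 and 7.40, and without fetal replicate 2 the value was -0.23. Separate groups were found for 7 of the 15 Hox probes (46.7%), against 69.1% of all tested probes. Among the 18 Hox probes above background on all 6 arrays, tested or not, they were found for 8, against 65.5% of all such probes. Hoxa3, below the signal filter, had means of 5.84 and 5.87.

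In HoxC, the difference was -0.18 for Hoxc4, 0.04 for Hoxc6, known from the developing thorax and mammary gland, and -0.08 for Hoxc12. Hoxc6 read 7.03, 6.86 and 7.20 in fetal cells and 6.80, 7.11 and 7.07 in adult basal cells. The interval of -0.28 to 0.36 leaves differences of less than 2-fold open in either direction. Hoxc8, below the filter, had means of 4.61 and 4.80. The groups overlapped for all 4 of these genes.

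Hoxd3 was the 1 tested member of HoxD. It read 3.95, 3.47 and 4.15 in fetal cells and 3.98, 4.09 and 7.52 in adult basal cells. The probe was above background on 1 fetal and 2 adult basal arrays. The adult basal mean rests on replicate 3, and the remaining 2 adult basal arrays lay within the fetal range. The log2 fold change of -1.34 ± 0.88 did not pass (adjusted p = 0.23), and its interval ran from -3.42 to 0.74.

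**Figure D3:**
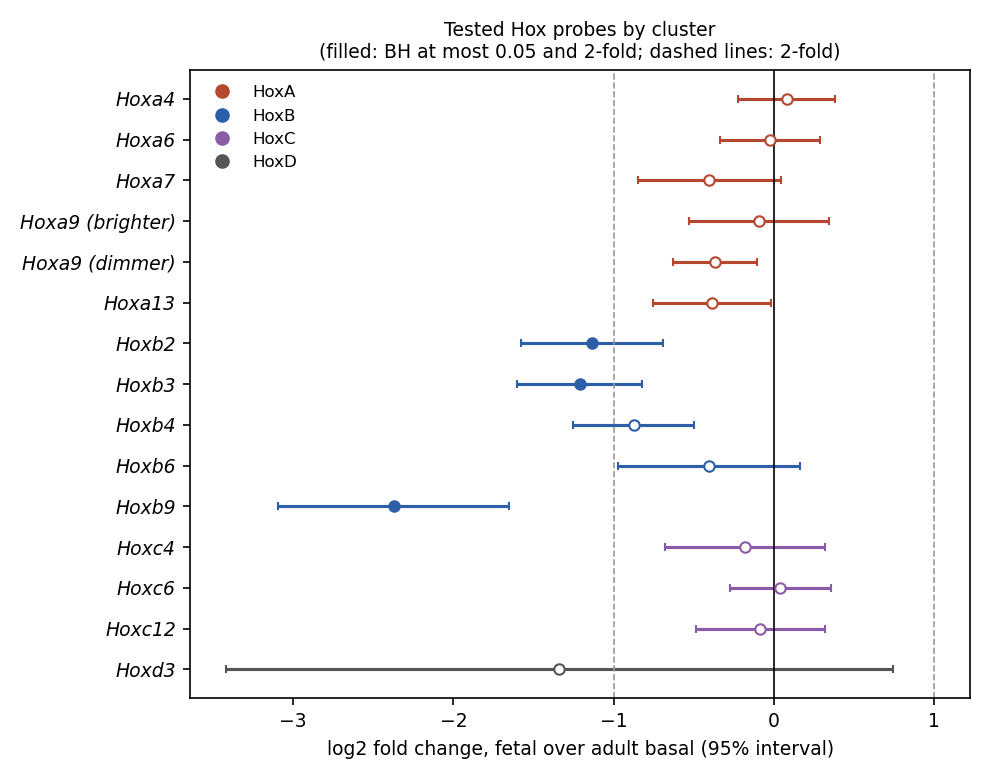
Log2 fold change (fetal over adult basal) with 95% interval for the 15 Hox probes reported, ordered by cluster and paralogue number and colored by cluster; filled points passed a Benjamini-Hochberg adjusted p of 0.05 with 2-fold. The 5 HoxB points lie between -2.37 and -0.40, while the HoxC points and the HoxA points lie between -0.40 and 0.08.

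Paralogues of the same number stood at different values in different clusters. In number 4, Hoxb4 was at -0.87 and passed the Benjamini-Hochberg adjustment, while Hoxa4 was at 0.08 and Hoxc4 at -0.18. In number 9, Hoxb9 was at -2.37 and Hoxa9 at -0.10 on its brighter probe and -0.37 on its dimmer one. In number 6, Hoxa6, Hoxb6 and Hoxc6 were at -0.03, -0.40 and 0.04 and none passed. The differences between paralogues themselves were not tested.

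The upstream sequences of Hoxb4 and Hoxc4 are shown because these are paralogues of which 1 passed and 1 did not, and because Hoxb2, Hoxb3 and Hoxb9 have no entry in the promoter table used. Of the 38 genes, 22 were matched, with 24 promoters. Each run holds the 250 bases before the annotated start (RefSeq, GRCm38.p6, plus strand), at chr11:96318017-96318266 for Hoxb4 and chr15:103034145-103034394 for Hoxc4. Capitals mark TAAT or its reverse ATTA, the core bound by most homeodomains.

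Hoxb4: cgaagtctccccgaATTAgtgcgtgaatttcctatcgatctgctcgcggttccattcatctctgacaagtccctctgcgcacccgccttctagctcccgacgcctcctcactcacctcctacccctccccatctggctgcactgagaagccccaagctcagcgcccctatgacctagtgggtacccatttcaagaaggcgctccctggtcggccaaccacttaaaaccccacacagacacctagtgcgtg
Hoxc4: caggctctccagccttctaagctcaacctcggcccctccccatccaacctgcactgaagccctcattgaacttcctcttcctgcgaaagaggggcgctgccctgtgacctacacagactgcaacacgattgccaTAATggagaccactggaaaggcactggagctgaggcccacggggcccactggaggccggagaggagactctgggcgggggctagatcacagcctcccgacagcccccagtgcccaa

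Each window held 1 TAAT core, a motif found on either strand in 54.9% of all 32851 promoter windows of this length and in 18 of the 24 Hox windows (75%). Neither held TGATNNAT or its reverse, the joint PBX and HOX motif, which can overlap TAAT and was present in 7.68% of all windows and in 4 of the 24 Hox windows. CpG dinucleotides numbered 14 in Hoxb4 and 8 in Hoxc4, with a median of 6 over all windows and 12.5 over the Hox windows. A match is a run of letters in the window and was not tested for binding.

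HOX proteins bind DNA together with TALE-class homeodomain partners of the PBX, MEIS and PKNOX families. The 8 of these genes reported here were tested with 10 probes, of which 2 were called at the Holm threshold, both higher in fetal cells (5.92% of all tested probes were). Of the 10, 3 passed the Benjamini-Hochberg adjustment with 2-fold in the fetal direction and 1 in the adult basal direction, where the backgrounds were 16% and 14%. The largest difference was in Meis2, at 9.86, 9.47 and 9.94 in fetal cells and 4.20, 3.82 and 4.50 in adult basal cells, where 2 of the 3 arrays were above background. The log2 fold change was 5.58 ± 0.20 (Holm-adjusted p = 3e-04). Meis2 had passed the signal filter through the fetal arrays alone, so that its direction in this test was set by it. In the limma fit without that filter its Holm-adjusted p was 0.0054.

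Meis1, a cofactor that also carries HOX proteins in blood cells, read 11.51, 11.74 and 11.61 in fetal cells and 9.70, 9.50 and 9.71 in adult basal cells (1.98 ± 0.11, Holm-adjusted p = 0.0077). The third member, Meis3, had a value of 0.08 with overlapping groups. Pbx3 was higher in fetal cells by 1.47 ± 0.16 and Pknox2 higher in adult basal cells by 1.19 ± 0.12 on the log2 scale, each past the Benjamini-Hochberg adjustment but not Holm. The remaining values were 0.47 for Pbx2, 0.72 for Pbx4 and 1.12 for the brighter Pknox1 probe, whose second adult basal array stood apart at 6.80 against 9.06 and 9.02. Pbx2 and Pbx4 passed the Benjamini-Hochberg adjustment under 2-fold (adjusted p = 0.0086 and 0.028), as did the dimmer Pknox1 probe (0.55, adjusted p = 0.0053). At any fold 61.1% of all tested probes passed it. Pbx4 had passed the signal filter through the fetal arrays alone, so that its direction was set by it. In the limma fit without that filter Pbx4 did not pass (Benjamini-Hochberg adjusted p = 0.054). The median over the 10 probes was 0.64, against -0.03 over all 20440 tested probes, and Pknox2 was the 1 reported gene that passed on the adult basal side.

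**Figure D4:**
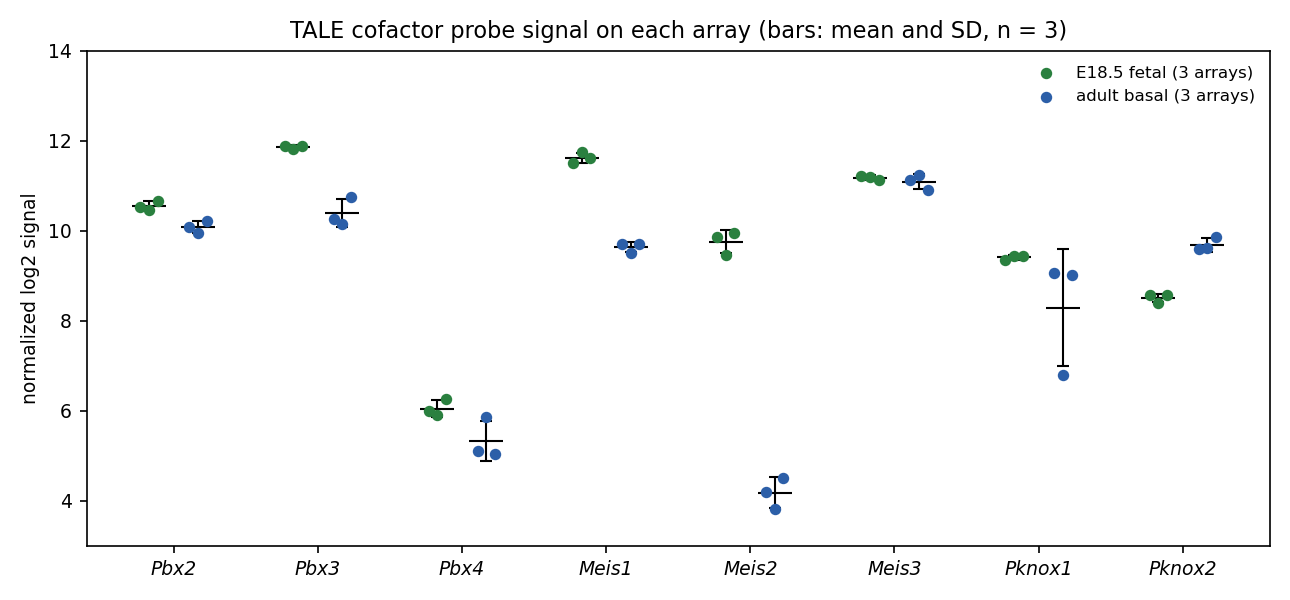
Normalized log2 signal of the brightest probe of 8 TALE cofactors on 3 fetal (green) and 3 adult basal (blue) arrays, with group mean and SD as bars. Fetal arrays lie far above adult basal arrays for Meis2 and clearly above for Meis1 and Pbx3, and below them for Pknox2; levels of different probes are not comparable.

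Over the whole list of cofactors and regulators, 42 of the 47 genes reported were tested with 55 probes, of which 6 were called on the fetal side and 3 on the adult basal side (the backgrounds were 5.92% and 5.18%). The 3 on the adult basal side were all probes of Ezh1. Without the signal filter 4 of the fetal calls held (Meis2, Ezh2, Gmnn and 1 Psip1 probe) and 0 of the adult basal calls. Meis2 had passed that filter through the fetal arrays alone and 1 of the Ezh1 probes through the adult basal arrays alone. Of the 15 Polycomb genes, which hold Hox genes silent, Ezh2 and Ezh1 were called in opposite directions. Ezh2, the histone H3 lysine methyltransferase that dominates in dividing cells, was higher in fetal cells by 2.21 ± 0.11 (Holm-adjusted p = 0.0021), at 12.25, 12.29 and 12.35 against 9.99, 10.22 and 10.03. Ezh1, its relative in resting cells, was higher in adult basal cells on all 3 of its probes, at -2.53, -2.32 and -2.40 (Holm-adjusted p = 0.029, 0.0072 and 0.0078). For both genes the groups were far apart relative to their spread.

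Bmi1 (1.03 and 1.06 on its probes) and Cbx7 (-1.29) passed the Benjamini-Hochberg adjustment with 2-fold. Both are of Polycomb repressive complexes that bind the mark made by Ezh2. Of the partners of Ezh2 in its complex, Eed (0.46) passed under 2-fold and Suz12 (0.31) did not pass. Phc1 (0.50) and Phc2 (0.46) also passed under 2-fold on the fetal side. On the adult basal side Jarid2 (-0.38) and the dimmer Pcgf2 probe (-0.45) did, while the brighter Pcgf2 probe (-0.17) did not pass. On the activating side, Psip1, which tethers MLL complexes to chromatin, was called higher in fetal cells on both probes (2.21 and 1.96, Holm-adjusted p = 0.0057 and 0.025). Its arrays read 11.54, 11.80 and 11.65 against 9.33, 9.42 and 9.61 on the brighter probe. Ash2l, a subunit of these complexes, had 1 of 2 probes past the Benjamini-Hochberg adjustment with 2-fold (1.48). Other members passed that adjustment without reaching 2-fold (at any fold 61.1% of all tested probes passed, and 30.4% on the adult basal side). On the fetal side these were the brighter probes of Ash2l (0.67) and Men1 (0.36). On the adult basal side they were the methyltransferases Kmt2b (-0.63) and Kmt2d (-0.90 and -0.81, with another probe at -0.41 that did not pass), the demethylases Kdm6a (-0.60) and Kdm6b (-0.83), which remove the Polycomb mark, and Kansl1 (-0.46 and -0.68). The median over the 16 probes of the list was -0.37.

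Of the inducers and antagonists of Hox expression, Gmnn was called. Its product, geminin, restrains both DNA replication licensing and Hox activity, and it was higher in fetal cells by 4.48 ± 0.16 (Holm-adjusted p = 3e-04). It read 11.25, 11.58 and 11.61 in fetal cells and 6.73, 7.16 and 7.10 in adult basal cells. Cyp26b1, which breaks down retinoic acid, and Rarb, a retinoic acid receptor, passed the Benjamini-Hochberg adjustment with 2-fold in the fetal direction (1.86 and 1.54). Rara, another such receptor, was higher in adult basal cells by less than 2-fold (-0.62 and -0.73, adjusted p = 0.0083 and 0.0063). Evx2, at the end of HoxD, had a value of -0.38 and did not pass.

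Markers of fibroblasts and mesenchyme, tissues in which Hox genes are also active, were examined next. Of the 10 listed genes, 10 probes were tested, of which 4 were called, all on the adult basal side (5.18% of all tested probes were), and 6 passed the Benjamini-Hochberg adjustment with 2-fold, again all on that side (14%). Their summed signal was 5486, 5776 and 7118 in the fetal samples and 16859, 20124 and 27898 in the adult basal samples, where the brightest probe was that of Col1a2 on every fetal array and that of Dcn on every adult basal array. Pdgfrb, Twist2 and both Prrx1 probes had passed the signal filter through the adult basal arrays alone, so that their direction was set by it, and of the 4 called probes Dcn alone passed in both groups. Called genes were Dcn (-3.78), Pdgfrb (-4.34) and Prrx1, whose 2 probes were above background on no fetal array and were at least 18.1-fold and 74.8-fold higher in adult basal cells. Col1a1 (-0.01) and Pdgfra (-0.37) did not pass, and Dpt was above background on the 3 adult basal arrays alone. The sort had kept EpCAM+ cells, a gate that leaves out the EpCAM-negative cells of the stroma. Adult cells had also been depleted of BP-1+ stromal cells. In bulk samples, a larger share of a cell type and more RNA per cell cannot be told apart, and the part of such cells in the HoxB values was not tested.

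Of the markers of basal cells, given above, 8 of 10 probes were also called higher on the adult basal arrays. The summed signal of the epidermis markers was higher on the fetal arrays (2323, 1891 and 1879 against 729, 784 and 741, with Krt10 the brightest probe), and of 5 tested probes 1 was called and 3 passed the Benjamini-Hochberg adjustment with 2-fold, all higher in fetal cells (5.92% and 16% of all tested probes). The 3 were Krt10 (1.47), Krt1 (1.95) and Krtdap (4.11), of which Krt1 and Krtdap passed the filter through the fetal arrays alone. No endothelial or leukocyte probe was called. On the adult basal side, 2 of 5 endothelial probes passed the Benjamini-Hochberg adjustment with 2-fold, Cdh5 (-2.70) and Emcn (-1.79), and 1 of 7 leukocyte probes, Lyz2 (-1.76), where 14% of all tested probes did. All 3 had passed the filter through the adult basal arrays alone. Tie1, also endothelial, was above background on no fetal array and on 2 adult basal arrays. The summed signals overlapped between the groups, at 10743 to 12492 against 11050 to 13635 for endothelium and 12386 to 16149 against 13772 to 15568 for leukocytes. These sums rest largely on 1 bright probe each, that of Kdr (-0.04) and that of Csf1r (-0.06). The sort had depleted CD31+ (endothelial) and CD45+ (blood) cells from both populations. The part of any of these cell types in the HoxB values was not tested either.

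**Figure D5:**
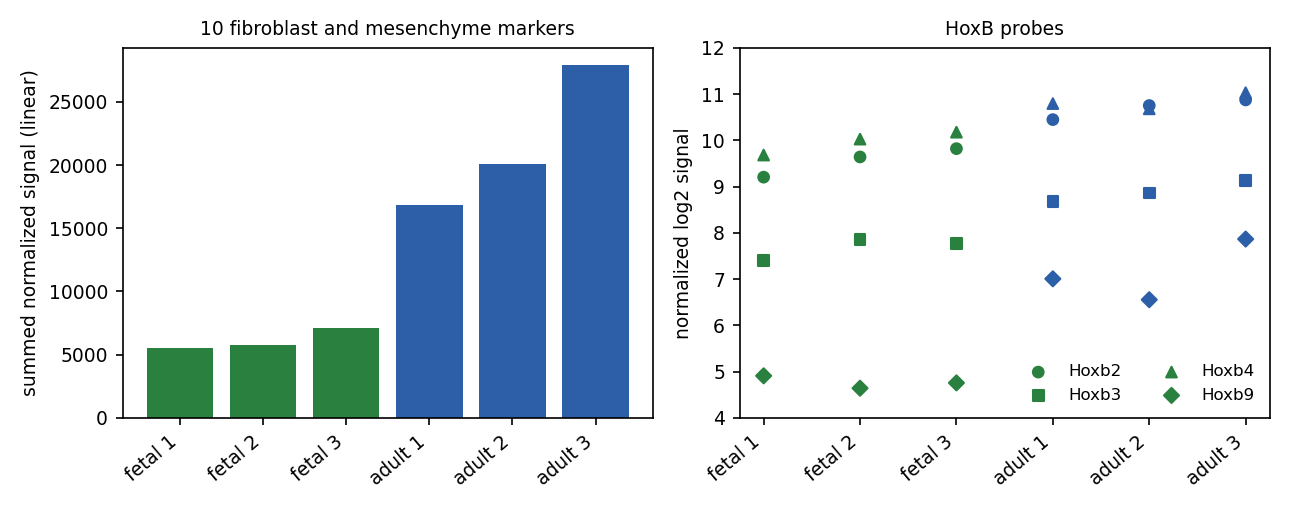
Left, summed linear normalized signal of the 10 fibroblast and mesenchyme markers on each array (bars); right, normalized log2 signal of the brightest probes of Hoxb2, Hoxb3, Hoxb4 and Hoxb9 on the same arrays (fetal green, adult basal blue). The marker sum was 5486 to 7118 on fetal and 16859 to 27898 on adult basal arrays, and all 4 HoxB probes were higher on the adult basal arrays.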

How the data were processed

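One-color Agilent arrays were used to profile RNA of 3 fetal and 3 adult basal samples. The authors deposited spot intensity values, read by version 11.0.1.1 of Agilent's Feature Extraction software (background and spatial trend subtracted, not normalized between arrays), and a table of log2 values that they had quantile normalized. Control spots and spots flagged as outliers (104 to 326 per array) were removed, log2 processed signals were averaged per probe and the 6 arrays were quantile normalized. The scanner tables carry accessions and no gene names, so members were found through the symbol of each accession in a RefSeq table (GRCm38.p6), which named 27222 probes complete on all arrays. Its coordinates were used for the promoters and for the order of genes alone. Probes under a log2 signal of 5.95, the limit of the lowest of 3 k-means clusters, in both populations were removed. The means for this filter were taken on the linear scale. The remaining 20440 were fitted with limma 3.58.1 in R 4.3.3 (lmFit, eBayes; two-sided; Holm or Benjamini-Hochberg adjustment over all of them), after a check on simulated data. An exact permutation of 3 against 3 arrays cannot give a p under 0.1 and was not used. Tables and plots were made in Python 3.11.15 with pandas 2.3.3, numpy 2.4.6 and matplotlib 3.10.9.

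Hox members and the lists of cofactors, regulators and cell type markers were chosen with earlier results of these data known. Some genes of the family and the lists are not reported here and are left out of every count over members, but not of the fits. Values on every array were given for Hox genes past an adjusted p of 0.05 with 2-fold, and values for those above background on all arrays; a gene was represented by its brightest probe. A group counted as not above background where no array of it was. Replicates are labelled as biological. Alternatives were normalization by the 75th percentile or the deposited values, normexp correction (offset 50, on the median spot signal), an offset of 16, other filters, probe averages, robust variance, blocks for slide and replicate number, and leaving out each array.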

Additional observations from a re-analysis of the deposited data

How the results depend on the processing

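No reported Hox probe was called at the Holm threshold under any alternative, and Benjamini-Hochberg in place of Holm gave 3 higher in adult basal cells. Cofactor and regulator probes called numbered 9, against 17 with Benjamini-Hochberg, 4 without the low-signal filter (all higher in fetal cells, with Ezh1, Meis1 and 1 Psip1 probe lost) and 4 with the replicate block. Leaving out 1 array gave 3 to 9 (3 without fetal replicate 1 or 3 or adult basal replicate 1, 4 without fetal replicate 2, 5 without adult basal replicate 3). The share called among all tested probes moved as well. It was 11.1%, against 30.0% with Benjamini-Hochberg, 4.34% without the filter and 6.37% with the replicate block. With 1 array left out it was 4.64% to 9.49%. Hox probes past Benjamini-Hochberg and 2-fold and higher in adult basal cells, recomputed under each alternative after the data had been seen, moved from 3 to 1 with normexp correction, 7 without the filter and 5 with a filter on probes above background. In these 4 settings 15, 9, 41 and 22 Hox probes were tested. In either direction 3, 1, 8 and 6 Hox probes passed, against 30.0%, 28.7%, 25.1% and 28.8% of all tested probes. In the adult basal direction 14% of all tested probes passed in the first of these settings. Normexp removed Hoxb9 from the test and left Hoxb3 at -0.95. Hoxb2 fell under 2-fold (-0.96) without fetal replicate 1. Hoxb9 lay between -2.69 and -1.87 and Hoxb4 between -0.97 and -0.74 in every alternative that tested them.

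Values near 0 changed sign when single arrays were left out: Hoxa4 ran from -0.0058 to 0.20, Hoxa6 from -0.14 to 0.082, the brighter Hoxa9 probe from -0.21 to 0.061, Hoxc12 from -0.20 to 0.098, Hoxc4 from -0.39 to 0.018 and Hoxc6 from -0.055 to 0.12. The cause was not tested. Deviations from the group means did not follow replicate number (correlations -0.03, 0.09 and 0.05 for numbers 1, 2 and 3). Detection did, with 83.3% and 82.0% of probes above background on the fetal and adult basal arrays of number 1. It was 78.9% and 78.0% for number 2, and 76.8% and 76.4% for number 3. Whether samples of the same number were handled together was not tested. With the replicate block the 3 Hox probes past Benjamini-Hochberg and 2-fold stayed in place. The dimmer Hoxa9 probe then no longer passed Benjamini-Hochberg (adjusted p = 0.052). Probes above background on no array of a population, as in most of HoxD, have bounds or no fold. The values of Hoxd3, Hoxb5 and Hoxb8 include arrays that were not above background.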

Other observations

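Hoxd3 and Hoxd3os1, a non-coding transcript of the same locus, were both high on adult basal replicate 3 alone. Hoxd3os1 read 2.72, 3.66 and 3.05 in fetal cells and 3.31, 3.44 and 9.36 in adult basal cells, and was above background on no array but the last. It exceeded the next highest array by 5.70 on the log2 scale and Hoxd3 by 3.37. Of the 27222 probes with a gene, 37 stood at least 3 above every other array on adult basal replicate 3, against 3 to 30 on each of the other arrays, and Hoxd3 was the 1 protein-coding Hox gene among them. Hoxa11os, antisense to Hoxa11, read 9.29, 9.21 and 9.16 in fetal cells and 9.29, 9.40 and 9.19 in adult basal cells, while the probe for Hoxa11 itself was above background on no array.

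Genes beside the Hox clusters include relatives that were duplicated together with them. Taking the 5 nearest tested genes on each side, a set chosen after values had been seen, the 10 neighbours had a median log2 fold change of -0.25 at HoxA, -0.17 at HoxB, 0.27 at HoxC and 0.73 at HoxD. At HoxB, 3 neighbours passed Benjamini-Hochberg and 2-fold in the adult basal direction and 1 in the fetal direction, where 14% and 16% of all tested probes passed. The counts were 1 and 2 at HoxA, 1 and 2 at HoxC, and 1 and 5 at HoxD. At HoxB the former included Copz2, a coat protein of Golgi vesicles (-2.40), and Nfe2l1, a stress-response factor (-2.07). The latter was Cbx1 (1.68), which encodes a heterochromatin protein of the HP1 family. Its relatives Cbx3 beside HoxA (1.24) and Cbx5 beside HoxC (2.45) also passed in the fetal direction. Nfe2l3 beside HoxA (1.49) and Nfe2l2 beside HoxD (-1.32) passed in opposite directions.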
